A study of Homo sapiens with 8 samples.

Results

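The cytosolic tRNAs that read lysine, glutamine and glutamate codons were described here in aldehyde-reactive probe (ARP) sequencing libraries of WT and ALKBH1 KO cells of a human embryonic kidney line, given as HEK-293 in the labels and as HEK293T in the study's methods. The members were every peak on a mature tRNA reference whose name holds Lys, Gln or Glu, which gave 25 merged regions of 1373 in the series and 143 peaks of 4746. Of the regions, 24 lay on the sense strand of a tRNA reference and 1 lay antisense, and they covered 6 anticodons: tRNA-Lys-CTT, tRNA-Lys-TTT, tRNA-Gln-CTG, tRNA-Gln-TTG, tRNA-Glu-CTC and tRNA-Glu-TTC, written below without the prefix where the meaning is plain. A peak was present in all 8 libraries for 13 of the 24 sense regions and in 1 library alone for 5.

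ARP is a biotinylated probe that reacts with aldehydes such as the formyl group of 5-formylcytidine (f5C). Total RNA was fragmented, reacted with ARP and either sequenced directly (input) or after a streptavidin pulldown (IP), from WT cells and from cells in which ALKBH1 had been knocked out, with 2 replicates in each of the 4 groups (WT input, WT IP, KO input, KO IP). Every sample, WT and KO alike, received an f5C-containing spike-in oligonucleotide, and its reads were not analysed here. Per the study's methods KO lines grew from single sorted cells, and which line gave these libraries is not given in the sources used here, so a clone effect cannot be told apart from the loss of ALKBH1. The study's text calls the replicates biological, while the labels do not say whether they came from separate cultures, so p-values measure the spread between these libraries, which may be technical.

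In these tRNAs the wobble base, base 34, is the first base of the anticodon and pairs with the last base of the codon. Where it is a U (T in the DNA sequence), human cells add a methoxycarbonylmethyl group to it through the Elongator complex and ALKBH8, and then a sulfur through CTU1 and CTU2, a modification for which the Lys, Gln and Glu tRNAs are the classical substrates. Their partners with C34 read the codon ending in G. ALKBH1 oxidises 5-methylcytidine, and its tRNA substrates known before the study carry it at C34 of cytosolic tRNA-Leu-CAA and of mitochondrial tRNA-Met. By mass spectrometry of isolated tRNAs, the study reported less f5C in tRNA-Glu-CTC without ALKBH1 and an unchanged level in tRNA-Gln-CTG. The study had picked both tRNAs from its sequencing of RNA crosslinked to ALKBH1, where it reported them as enriched, with crosslinks close to the wobble base. Its pyridine borane sequencing reported ALKBH1-dependent mutations in the Glu-CTC anticodon. Purified ALKBH1 also oxidised synthetic anticodon stem loops of both tRNAs in the study.

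To show how close the partners are, the reference with the highest count of 5 of the anticodons is printed 5′ to 3′ as the mature gene sequence (RefSeq tRNA genes, GRCh38), with the anticodon, bases 34 to 36, in capitals.
tRNA-Lys-CTT-2-1 (TRK-CTT2-1, chr1:146039401-146039473, plus strand): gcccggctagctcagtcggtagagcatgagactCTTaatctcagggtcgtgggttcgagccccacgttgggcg
tRNA-Lys-TTT-3-1 (TRK-TTT3-1, chr1:204506527-204506599, plus strand): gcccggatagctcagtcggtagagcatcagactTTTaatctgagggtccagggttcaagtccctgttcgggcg
tRNA-Gln-CTG-2-1 (TRQ-CTG2-1, chr6:27547752-27547823, minus strand): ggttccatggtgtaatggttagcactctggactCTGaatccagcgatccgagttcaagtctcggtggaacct
tRNA-Gln-TTG-2-1 (TRQ-TTG2-1, chr6:28589379-28589450, plus strand): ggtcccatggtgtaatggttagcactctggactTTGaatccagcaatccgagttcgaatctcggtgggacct
tRNA-Glu-TTC-2-1 (TRE-TTC2-1, chr13:44917927-44917998, minus strand): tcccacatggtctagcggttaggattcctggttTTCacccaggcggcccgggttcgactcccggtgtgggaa
The Lys partners differed at 12 of 73 bases and the Gln partners at 6 of 72. A sequence was matched to 47 of the 48 gene copies named in these regions, and the anticodon stood at bases 34 to 36 in each of the 22 references that could be sequenced.

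Another 3 references are shown because their values are set against those of a close relative printed above.
tRNA-Glu-TTC-1-1 (TRE-TTC1-1, chr2:130337128-130337199, minus strand): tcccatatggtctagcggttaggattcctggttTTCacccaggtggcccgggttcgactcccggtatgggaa
tRNA-Lys-CTT-1-1 (TRK-CTT1-1, chr14:58239895-58239967, minus strand): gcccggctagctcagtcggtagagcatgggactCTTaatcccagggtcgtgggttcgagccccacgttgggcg
tRNA-Lys-TTT-6-1 (TRK-TTT6-1, chr6:27334990-27335062, minus strand): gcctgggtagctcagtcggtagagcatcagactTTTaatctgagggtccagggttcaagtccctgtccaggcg
Glu-TTC-1-1 differed from Glu-TTC-2-1 at 3 of 72 bases, Lys-CTT-1-1 from Lys-CTT-2-1 at 2 of 73 and Lys-TTT-6-1 from Lys-TTT-3-1 at 4 of 73.

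The peaks covered different parts of these molecules. All 8 peaks of Lys-CTT-2-1 ended at base 27 or 28, before the anticodon, whereas the 8 peaks of Lys-CTT-1-1 ran from base 2 to base 40. Peaks of Glu-CTC-1-1 and Glu-TTC-4-1 all ended at base 33, and those of Lys-TTT-3-1 at base 49. Of the sense peaks with a sequence, 46 of 62 on T34 references spanned the anticodon and 27 of 72 on C34 references did. The counting tool places each cDNA at the base before its start. For each reference the last base was found from which the remaining 3′ sequence occurs in no other of 423 RefSeq tRNA genes, and the highest peak end equalled the base before it in 13 of 22 references. Of 134 peaks, 68 ended exactly there, 80 within 1 nt of it, and 4, all on Lys-TTT-6-1, beyond it. A count of a reference is therefore a count over the bases that its peak covers, and counts of T34 and C34 references cover different windows.

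**Figure D1:**
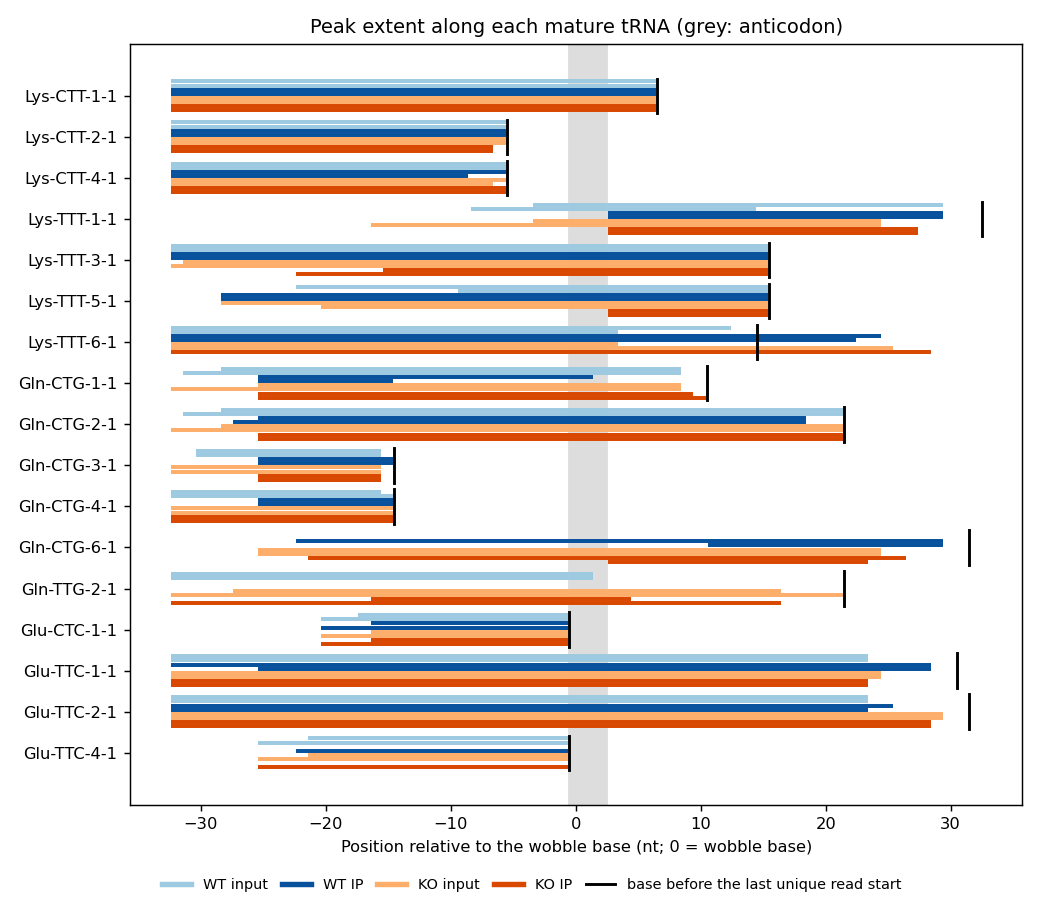
Each horizontal line is the peak of 1 library on a reference seen in 6 or more libraries, drawn in nucleotides relative to the wobble base (0) and coloured by group, with the anticodon in grey. The black bar marks the base before the last position from which a read is unique to that reference, and the peaks of Lys-CTT, Lys-TTT-3-1, Glu-CTC-1-1 and Glu-TTC-4-1 stop at or within a few bases of it.

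The libraries held 48380 to 285539 counts in peaks, the KO inputs being deepest and the IPs shallowest, and the lists hold no peak under 10 counts, which stood for 35.02 to 207 CPM, the count scaled to the peak total of its library. A peak missing from a list is called unlisted and is not a 0. CPM values are not TMM-scaled, whereas fitted fold changes are, so both can differ. The members made up 15.2 to 15.8% of the cytosolic tRNA counts in WT inputs, 7.69 to 9.43% in WT IPs, 13.6% in both KO inputs and 10.5 to 11.7% in KO IPs, so their share was lower in every IP than in every input. This share also depends on other tRNAs. In KO IPs tRNA-Arg-TCG alone held 5568 of 17549 and 5864 of 17844 cytosolic tRNA counts. In KO inputs it held 2696 of 54317 and 4581 of 77477. In WT it held 6047 of 21313 and 5048 of 17401 in IPs, and 2457 of 31405 and 3416 of 34651 in inputs. No sense peak lay on ALKBH1, so the knockout could not be checked by its transcript. For scale, tRNA-Leu-CAA was 2.68 ± 0.16 (log2, SE) higher in WT IPs than in WT inputs (adjusted p = 8.36e-05), and the log2 fold change in the KO was -1.26 ± 0.24 (adjusted p = 0.00347).

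Lys-CTT and Glu-CTC, both with C34, were lower in the IP than in the input in both genotypes. Gln-CTG, also with C34, was called in neither. No T34 anticodon sum was called lower, although the single references Lys-TTT-1-1 and Lys-TTT-3-1 were called lower in WT. Lys-TTT was called higher in the KO and not called in WT, a contrast between genotypes that the interaction below tests. Gln-TTG was called higher in the KO and could not be tested in WT. Counts were summed per anticodon and tested with edgeR's quasi-likelihood test over all anticodons and other regions. In WT cells 2 of 5 tested members passed an adjusted p of 0.05, both lower in the IP, against 51.9% of all features tested, 49 higher and 49 lower. Over the 5 members the log2 fold change had a median of -0.25, and over all 189 features a median of -0.11. In KO cells 4 of 6 passed, 2 higher and 2 lower, against 56.5% of all features, 48 higher and 61 lower, or 63 higher and 46 lower when TMM factors were taken from cytosolic tRNAs alone. The medians were 0.17 over the 6 members and -0.03 over all 193 features. With so few members these shares do not stand apart from the background. TMM factors from cytosolic tRNAs alone moved the median of all features to 0.11 in WT and 0.32 in KO.

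tRNA-Lys-CTT, with the highest count of the 6 in every input, stood at 28930 and 30960 CPM in WT inputs and at 8760 and 8475 CPM in WT IPs. In the KO it stood at 20190 and 20750 CPM in the inputs and at 11720 and 12240 CPM in the IPs. The IPs lay below the inputs in each genotype with no overlap, and the fitted log2 fold changes were -1.82 ± 0.15 (SE, n = 2 per group, adjusted p = 0.00019) in WT and -0.96 ± 0.12 (adjusted p = 0.000451) in KO. Both calls held when any 1 of the 4 libraries was left out.

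tRNA-Lys-TTT, the partner that reads both lysine codons, stood at 16920 and 14980 CPM in WT inputs and at 14480 and 12690 CPM in WT IPs, which lay just below both inputs. In the KO the order turned, with 9661 and 7754 CPM in the inputs and 16620 and 14540 CPM in the IPs. The log2 fold change was -0.25 ± 0.14 in WT (adjusted p = 0.209) and 0.65 ± 0.18 in KO (adjusted p = 0.0157). The KO call was lost without KO IP 1 (adjusted p = 0.105).

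tRNA-Glu-CTC, for which 1 reference with 7 gene copies carried all counts, stood at 1401 and 1642 CPM in WT inputs and at 703 and 579 CPM in WT IPs. In the KO its levels were 1244 and 1334 CPM in the inputs and 655 and 729 CPM in the IPs. The IP values were below the input values throughout, with log2 fold changes of -1.26 ± 0.30 in WT (adjusted p = 0.0127) and -1.08 ± 0.23 in KO (adjusted p = 0.00522). The WT call was lost without WT input 1 (adjusted p = 0.0665) or WT IP 2 (adjusted p = 0.0788).

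tRNA-Glu-TTC stood at 2802 and 3040 CPM in WT inputs, 3883 and 3824 CPM in WT IPs, 3938 and 3968 CPM in KO inputs and 4886 and 4814 CPM in KO IPs. Each IP was above the inputs of its genotype in CPM, and the fitted log2 fold changes were 0.38 ± 0.19 in WT (adjusted p = 0.15) and 0.11 ± 0.16 in KO (adjusted p = 0.596), neither past the threshold. Both passed with TMM factors from cytosolic tRNAs alone (0.60, adjusted p = 0.0298, and 0.45, adjusted p = 0.0234) and with a mean count of at least 50 (0.57, adjusted p = 0.0194, and 0.34, adjusted p = 0.0489).

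For glutamine, tRNA-Gln-CTG stood at 2420 and 2754 CPM in WT inputs, 2752 and 2088 CPM in WT IPs, 2797 and 2872 CPM in KO inputs and 4249 and 3318 CPM in KO IPs. Groups overlapped in WT but not in KO, and neither log2 fold change passed (-0.12 ± 0.24, adjusted p = 0.744, and 0.23 ± 0.19, adjusted p = 0.354). With TMM factors from cytosolic tRNAs alone the KO value passed (0.57, adjusted p = 0.0305), and all 6 members were then called in the KO. tRNA-Gln-TTG was at the edge of detection, with 15 and 15 counts in WT inputs, 34 and 52 in KO inputs and 21 and 15 in KO IPs, equal to 159, 153, 175, 182, 393 and 288 CPM in that order. In the WT IPs it held 10 counts, on Gln-TTG-4-1 alone, in 1 library and was unlisted in the other, where 10 counts were worth 207 CPM, more than its level in either WT input. No WT difference was tested, and a lower level, or a rise that stayed under the list minimum of 153 CPM in WT IP 1 and 207 CPM in WT IP 2, could not be seen at this depth. In the KO it was 0.74 ± 0.26 higher in the IP (log2, adjusted p = 0.0403), a call lost with DESeq2 (adjusted p = 0.223) and when any 1 of the 4 libraries was left out (adjusted p = 0.0856 to 0.32).

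**Figure D2:**
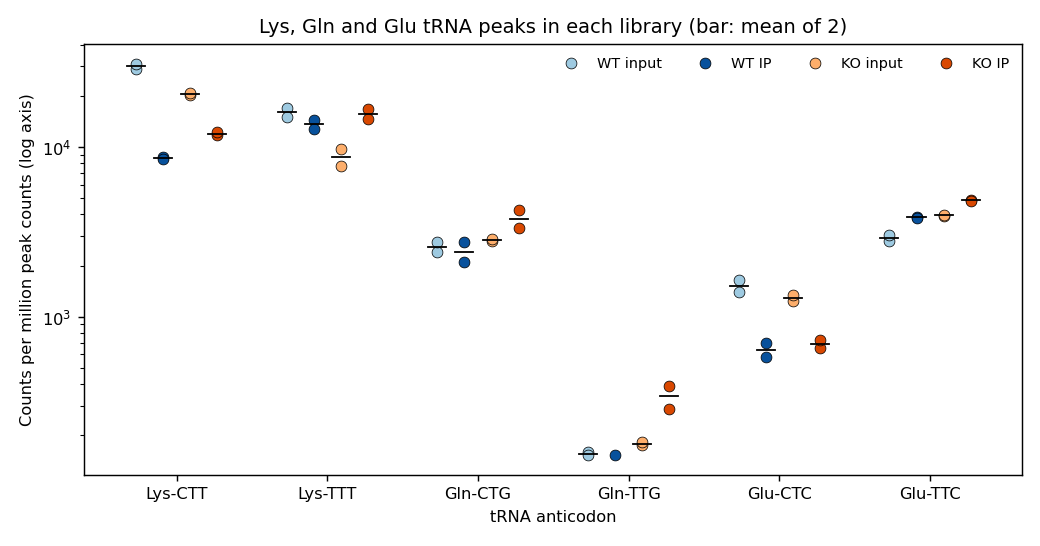
CPM on a log axis for each anticodon, 1 point per library and a bar at the mean of 2 replicates, coloured by group. Lys-CTT and Glu-CTC sit lower in the IPs than in the inputs in both genotypes, and Gln-TTG has a single WT IP point because it was unlisted in WT IP 2.

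None of 5 tested members passed in WT IP against KO IP (edgeR, 0 of 5 also at an unadjusted p under 0.05 and with DESeq2), with log2 values from -0.33 for Gln-CTG to 0.21 for Glu-CTC, against 41.5% of all features, 37 higher in WT and 34 lower. With peak totals as library sizes that split was 22 higher and 48 lower (23 and 45 with tRNA-only TMM factors), the median of all features moved from -0.01 to -0.33, and Lys-CTT then passed as lower in WT (-0.47, adjusted p = 0.0171). In the inputs 2 of 6 members passed, both higher in WT, against 28.6% of all features, 41 higher and 54 lower, or 38 and 75 with peak totals and 21 and 112 with TMM factors from the cytosolic tRNAs alone, which moved the median of all features from -0.03 to -0.35. These were Lys-CTT at 0.66 ± 0.08 (log2, adjusted p = 0.0213) and Lys-TTT at 0.98 ± 0.16 (adjusted p = 0.0285), and each call was lost when WT input 1, WT input 2 or KO input 1 was left out (adjusted p = 0.0628 to 0.102). In bulk RNA a higher level per cell and more cells carrying it cannot be told apart.

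The interaction term, the log2 pulldown difference in WT minus that in KO, was fitted over all 8 libraries and the 138 features listed in each, with TMM factors of its own, so it does not equal the difference of the separate fits above. It passed for none of 5 members in edgeR, with 3 of 5 at an unadjusted p under 0.05, against 26.8% of all features. It was 0.65 ± 0.22 for Glu-TTC (adjusted p = 0.0596), -0.48 ± 0.18 for Lys-CTT (adjusted p = 0.089) and -0.52 ± 0.22 for Lys-TTT (adjusted p = 0.117). Those values depend on the scaling, since all features had a median of 0.19 with TMM factors, with 30 calls higher and 7 lower, and of -0.35 with peak totals, with 16 higher and 36 lower. RLE factors gave 26 higher and 21 lower, and tRNA-only TMM factors 16 higher and 27 lower. With peak totals Lys-CTT was at -1.02 (adjusted p = 0.000461) and Lys-TTT at -1.07 (adjusted p = 0.00728), both past the threshold, and both also passed with RLE size factors, with TMM factors from cytosolic tRNAs alone and with DESeq2, which called 3 of 5.

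A share within a wobble pair does not move with the scaling of a library, but it does depend on the windows that the peaks cover. Peaks of Lys-CTT-2-1 ended at base 27 or 28 and those of Lys-TTT-3-1 at base 49. The peaks of Lys-TTT-3-1 began at bases 19 and 12 in KO IPs and at base 2 or 3 in every other library. The part of such windows in the shares was not tested. The T34 share of the Lys pair, Lys-TTT over Lys-TTT and Lys-CTT together, was 36.9% (Wilson 95% interval 35.5 to 38.4) and 32.6% (31.3 to 34) in WT inputs and 62.3% (59.8 to 64.7) and 59.96% (56.9 to 62.9) in WT IPs. In the KO it was 32.4% (31.2 to 33.6) and 27.2% (26.2 to 28.2) in the inputs and 58.7% (56.2 to 61.1) and 54.3% (51.7 to 56.9) in the IPs. All 4 IP libraries lay above all 4 inputs, by 26.5 percentage points in the means.

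For the Glu pair the T34 share was 66.7% (61.9 to 71.1) and 64.9% (60.5 to 69.2) in WT inputs and 84.7% (80.2 to 88.3) and 86.9% (81.7 to 90.8) in WT IPs. In the KO it was 76.0% (73.3 to 78.5) and 74.8% (72.6 to 77.0) in the inputs and 88.2% (84.0 to 91.4) and 86.9% (82.5 to 90.3) in the IPs. Again every IP lay above every input, by 16.0 points in the means. Intervals cover counting error alone. Windows differed here too, since peaks of Glu-CTC-1-1 ended at base 33 and those of Glu-TTC-2-1 between bases 57 and 63.

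For both pairs the exact two-sided permutation test of 4 IP against 4 input libraries gave p = 0.0286, the smallest that 70 arrangements allow, and an adjusted p of 0.0643 over the 9 T34 and C34 pairs with peaks in every library. None of the 9 pairs passed after adjustment (0%), and 4 reached the smallest unadjusted p: Lys, Glu, Arg-TCG with Arg-CCG and Thr-TGT with Thr-CGT. A fully separated pair could pass only if most of the 9 pairs also reached that smallest p, so a failure to pass decides nothing for a single pair. The difference was 25.4 points for the Arg pair and 7.23 points for the Thr pair. The Leu-TAA and Leu-CAA pair, which holds a known ALKBH1 substrate, had a difference of -40.3 points in WT and 15.4 points in KO. A higher T34 share in the IP was therefore not shown to be particular to the Lys and Glu pairs.

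Between genotypes, with both fractions pooled, the T34 share of WT minus KO was 4.82 points for Lys (permutation p = 0.514) and -5.69 points for Glu (permutation p = 0.429). No pair of 9 passed (0%), with 2 of 9 at an unadjusted p under 0.05, and the limit on passing given above held here too. The arrangements mixed IP and input libraries, whose mean shares differed by 26.5 points for Lys and 16.0 points for Glu. These p-values therefore take in the gap between fractions and cannot decide whether the genotypes differed within a fraction. Within fractions the Lys share was 4.66 points higher in WT IPs than in KO IPs and 4.98 points higher in WT inputs than in KO inputs, with a pooled SD of 2.47 and 3.36 points and no overlap. For Glu the WT inputs minus the KO inputs gave -9.62 points (pooled SD 1.05) with no overlap, and the IPs overlapped. A permutation test of 2 against 2 libraries cannot go below p = 0.3333.

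For the Gln pair, not tested because Gln-TTG was unlisted in WT IP 2, the T34 share was 6.17% (3.78 to 9.93) and 5.26% (3.22 to 8.501) in WT inputs, 5.26% (2.88 to 9.42) in WT IP 1, 5.88% (4.24 to 8.11) and 5.96% (4.58 to 7.74) in KO inputs and 8.47% (5.61 to 12.6) and 7.98% (4.90 to 12.8) in KO IPs. The Wilson intervals of all 7 libraries overlapped. In WT IP 1 the T34 count came from Gln-TTG-4-1 alone, at bases 57 to 58, and elsewhere from Gln-TTG-2-1, so that value covers another window.

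**Figure D3:**
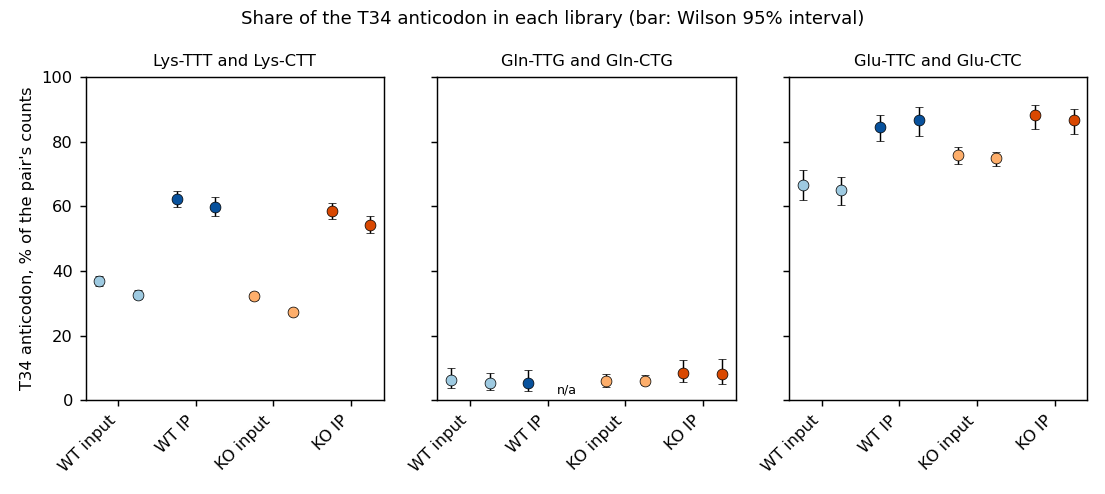
The T34 anticodon as a percent of the counts of its wobble pair in each library, with Wilson 95% intervals and colour by group; n/a marks the library in which Gln-TTG was unlisted. For the Lys and Glu pairs every IP lies above every input, and for the Gln pair the share stays between 5.26% and 8.47%.

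The references of an anticodon did not all move with its sum. Tested one by one, 8 of 14 members passed in WT IP against WT input (2 higher, 6 lower; 48.1% of all regions) and 10 of 15 in KO IP against KO input (5 higher, 5 lower; 56.5%). All 3 testable Lys-CTT references fell in both genotypes: Lys-CTT-1-1 by 2.05 in WT and 0.79 in KO on the log2 scale, Lys-CTT-2-1 by 1.71 and 0.90, and Lys-CTT-4-1 by 2.49 and 1.37 (adjusted p between 0.000802 and 0.00615). The peaks of Lys-CTT-2-1 and Lys-CTT-4-1 end at base 28 or earlier and so leave out the anticodon, whereas that of Lys-CTT-1-1 covers it. All 6 calls held in every leave-out. Glu-CTC-1-1 was also lower in both, at -1.31 ± 0.21 (adjusted p = 0.00953) and -0.99 ± 0.19 (adjusted p = 0.00549), and the WT call was lost without WT input 2 (adjusted p = 0.0988) or WT IP 2 (adjusted p = 0.0738).

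The Lys-TTT references had different signs. Lys-TTT-3-1, which carried 85.2% of the counts, fell by 0.31 in WT (log2, adjusted p = 0.0482, lost when any 1 of the 4 libraries was left out, adjusted p = 0.0834 to 0.708) and rose by 0.83 ± 0.18 in KO (adjusted p = 0.00735). Lys-TTT-1-1 was lower in both, at -1.13 ± 0.26 (adjusted p = 0.0267) and -0.63 ± 0.21 (adjusted p = 0.0389), and its peak began at base 37 in all 4 IPs and between bases 18 and 31 in the inputs, so that different windows were compared. Its WT call was lost without WT input 1, WT input 2 or WT IP 2 (adjusted p = 0.0691 to 0.184) and its KO call when any 1 of the 4 libraries was left out (adjusted p = 0.0574 to 0.107). Lys-TTT-6-1 stood at 276 and 286 CPM in WT inputs and 657 and 599 CPM in WT IPs, a rise of 1.09 ± 0.21 (adjusted p = 0.0154) that was lost when any 1 of the 4 libraries was left out (adjusted p = 0.054 to 0.0885). It held 468 CPM in KO IP 1 against 242 and 231 CPM in KO inputs and was unlisted in KO IP 2. Lys-TTT-5-1 differed between replicates by more than between groups, with 1762 and 561 CPM in WT inputs and 1483 and 682 CPM in WT IPs.

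Of the Glu-TTC references, Glu-TTC-1-1 stood at 955 and 867 CPM in WT inputs, 1850 and 1757 CPM in WT IPs, 1486 and 1425 CPM in KO inputs and 1086 and 1132 CPM in KO IPs. It was higher in the IP in WT and its KO IPs lay below KO inputs, with log2 fold changes of 0.92 ± 0.18 (adjusted p = 0.0159) and -0.49 ± 0.19 (adjusted p = 0.0644). Glu-TTC-2-1 stood at 1645 and 1561 CPM in WT inputs, 2033 and 1798 CPM in WT IPs, 2216 and 2126 CPM in KO inputs and 3800 and 3414 CPM in KO IPs. It rose in the KO by 0.64 ± 0.16 (log2, adjusted p = 0.0144), with 0.19 ± 0.16 in WT (adjusted p = 0.397). The WT call of Glu-TTC-1-1 was lost without either WT input (adjusted p = 0.101 and 0.151) and the KO call of Glu-TTC-2-1 without KO input 2 (adjusted p = 0.0906). The peak of Glu-TTC-1-1 ended at base 62 in both WT IPs and at base 57 or 58 in the other 6 libraries, and the part of this in its values was not tested.

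Among the Gln references 3 rose in the KO IP: Gln-CTG-4-1 by 0.71 ± 0.21 (log2, adjusted p = 0.0253), Gln-CTG-6-1 by 0.73 ± 0.22 (adjusted p = 0.0255) and Gln-TTG-2-1 by 0.84 ± 0.25 (adjusted p = 0.026). Each call was lost when any 1 of the 4 libraries was left out (adjusted p = 0.0564 to 0.32). None of the 4 Gln-CTG references tested in WT passed, with log2 values from -0.85 to 0.55. The peak of Gln-CTG-4-1 began at base 9 in both WT IPs and at base 2 in every other library. Its WT difference, its interaction and its WT IP against KO IP value below therefore compare different windows. References listed in 1 library held 10 or 11 counts each: Lys-CTT-5-1 and Lys-TTT-4-1 in KO input 2, Glu-TTC-3-1 in WT input 2, Gln-TTG-4-1 in WT IP 1 and Gln-CTG-7-1 in KO IP 1.

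The interaction was tested for each reference and passed for 4 of 13, 1 higher and 3 lower, against 30.1% of 186 regions, of which 37 were higher and 19 lower, or 21 and 48 with peak totals, which moved the median from 0.04 to -0.34. Glu-TTC-1-1 had 1.76 ± 0.24 (adjusted p = 0.00142), and this held when any of the 8 libraries was left out. Glu-TTC-2-1 had -0.09 ± 0.24 (adjusted p = 0.8). Lys-CTT-1-1 had -0.92 ± 0.21 (adjusted p = 0.0159), lost without WT IP 2 (adjusted p = 0.0679). Lys-TTT-3-1 had -0.79 ± 0.21 (adjusted p = 0.0287), lost without WT IP 2 (adjusted p = 0.12) or either KO IP (adjusted p = 0.0674 and 0.0662). Gln-CTG-4-1, with 31 and 36 counts in WT inputs, 13 and 12 in WT IPs, 72 and 111 in KO inputs and 39 and 31 in KO IPs, had -1.08 ± 0.34 (adjusted p = 0.0451), lost when any 1 library was left out (adjusted p = 0.0512 to 0.121).

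Between the IPs 4 of 14 references passed (37.3% of all regions, 41 higher in WT and 41 lower, or 28 and 55 with peak totals), and 7 with the replicate number as a block. Glu-TTC-1-1 was 0.96 ± 0.27 higher in WT (adjusted p = 0.0238), and with peak totals it did not pass (adjusted p = 0.0736). Lower in WT were Gln-CTG-4-1 (-1.32 ± 0.34, adjusted p = 0.0163), Lys-CTT-1-1 (-0.66 ± 0.18, adjusted p = 0.0206) and Glu-TTC-2-1 (-0.65 ± 0.22, adjusted p = 0.0424). All 4 calls were lost without KO IP 1 or without KO IP 2 (adjusted p = 0.0638 to 0.331), and that of Glu-TTC-2-1 also without WT IP 2 (adjusted p = 0.125). Between the inputs 6 of 17 passed (35.2% of all regions). Higher in WT were Lys-CTT-1-1, Lys-CTT-2-1, Lys-CTT-4-1, Lys-TTT-3-1 and Lys-CTT-11-1, by 0.42 to 2.15 on the log2 scale, and Glu-TTC-1-1 was lower (-0.63 ± 0.14, adjusted p = 0.0381). Each of the 6 calls was lost without WT input 2, KO input 1 or KO input 2, and those of Lys-CTT-1-1, Lys-CTT-4-1 and Glu-TTC-1-1 also without WT input 1 (adjusted p = 0.0558 to 0.196).

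**Figure D4:**
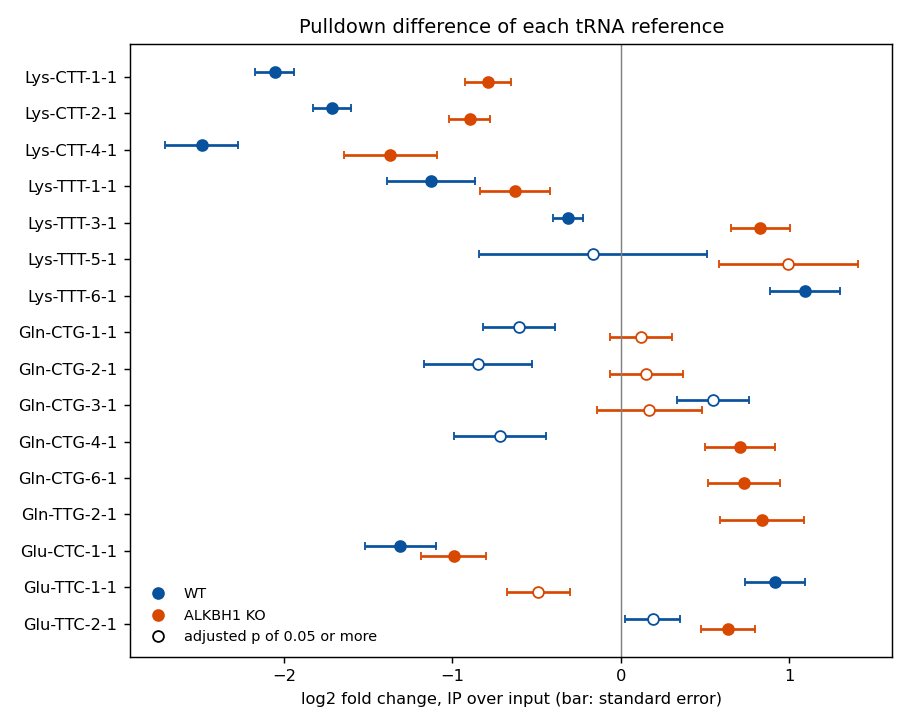
Log2 fold change of IP over input for each tRNA reference with a peak in all 4 libraries of the comparison, in WT (blue) and ALKBH1 KO (orange), with the standard error of the edgeR fit as bars and open symbols where the adjusted p is 0.05 or more. The Lys-CTT references and Glu-CTC-1-1 lie below 0 in both genotypes, and Glu-TTC-1-1 lies at 0.92 in WT and -0.49 in KO.

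A filter after the study's methods asked for a peak in both IP replicates with a score, the cDNA count, above 10. The peak also had to be unlisted in the input or to have a mean CPM ratio of IP over input above 1.5. The filter kept 4 of 15 members held by both WT IPs (Gln-CTG-3-1, Gln-CTG-6-1, Glu-TTC-1-1 and Lys-TTT-6-1), against 47.7% of all 333 such regions. In KO it kept 6 of 15 (Gln-CTG-4-1, Gln-CTG-6-1, Gln-TTG-2-1, Glu-TTC-2-1, Lys-TTT-3-1 and Lys-TTT-5-1), against 44.2% of all 283. No Lys-CTT or Glu-CTC reference was kept in either genotype, and Gln-CTG-6-1, unlisted in both WT inputs, was kept in both. For ALKBH1-dependent targets the study also required a peak to be absent from the KO control, which this filter does not ask. All 4 references kept in WT had a peak in a KO IP. In WT the mean ratios were 1.53 for Gln-CTG-3-1, 1.98 for Glu-TTC-1-1 and 2.24 for Lys-TTT-6-1, and in KO they ranged from 1.66 for Glu-TTC-2-1 to 2.04 for Lys-TTT-5-1. Of the members kept in KO, Lys-TTT-5-1 did not pass the test (adjusted p = 0.0811).

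Reads that did not map to a mature tRNA could still map to the genome, and at 27 of the 61 RefSeq gene loci of these tRNAs a genomic peak was listed, 16 for Lys, 7 for Gln and 4 for Glu. Such regions can reach past the mature ends, as at TRK-CTT2-1, where the peak region chr1:146039390-146039460 began before the gene. Together they held 255 and 189 counts in WT inputs, 549 and 548 in WT IPs, 229 and 483 in KO inputs and 97 and 111 in KO IPs. As a percent of the counts on the mature references this was 5.14 and 3.60% in WT inputs, 27.3 and 41.0% in WT IPs, 3.10 and 4.59% in KO inputs and 4.71 and 5.93% in KO IPs. The WT IPs stood far above the other 6 libraries. At all other nuclear tRNA gene loci the same percentage was 20.8 and 14.2% in WT inputs, 33.1 and 31.0% in WT IPs, 13.4 and 12.3% in KO inputs and 15.7 and 9.84% in KO IPs, so the WT IPs were highest there too.

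TRK-CTT2-1 held 52 and 46 counts in WT inputs and 128 and 130 in WT IPs, 49 and 78 in KO inputs, and was unlisted in both KO IPs. It was 2.12 ± 0.27 higher in the WT IP than in the WT input (log2, adjusted p = 0.0045), while the mature reference of the same sequence, Lys-CTT-2-1, fell by 1.71. TRK-TTT3-4 (58 and 79 counts) and TRK-CTT2-2 (35 and 35 counts) were listed in WT IPs alone. TRK-CTT2-5 held 74 and 71 counts in WT IPs and 10 and 16 in KO IPs, a difference of 2.64 ± 0.37 (log2, adjusted p = 0.000738). The loci of 2 T34 references, TRE-TTC1-2 and TRK-TTT6-1, were listed in all 8 libraries and were higher in the IP in both genotypes, TRE-TTC1-2 by 1.43 in WT (adjusted p = 0.00998) and 2.48 in KO (adjusted p = 0.000421) and TRK-TTT6-1 by 1.43 (adjusted p = 0.0103) and 1.14 (adjusted p = 0.00615). Neither passed in the interaction (adjusted p = 0.182 and 0.15).

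**Figure D5:**
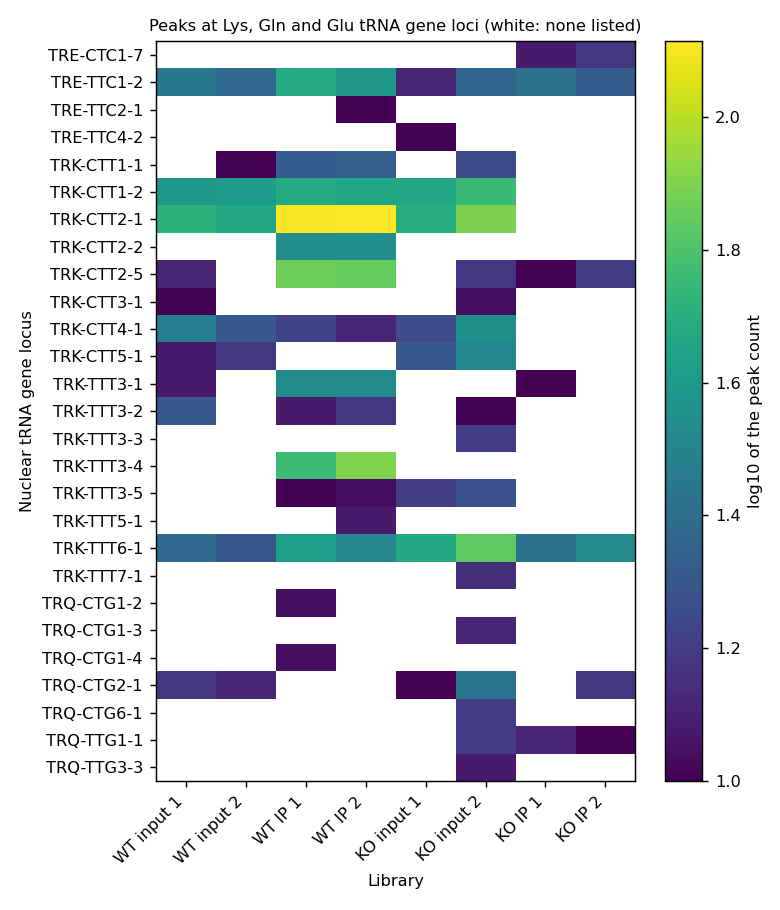
Peak counts (log10 of the count, not scaled for depth) at each nuclear Lys, Gln or Glu tRNA gene locus in the 8 libraries, with white where no peak was listed. Several TRK-CTT and TRK-TTT loci are highest in or limited to the 2 WT IPs, and TRE-TTC1-2 and TRK-TTT6-1 are listed in every library.

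The mitochondrial tRNAs of the same amino acids were scarce: MT-TK (tRNA-Lys) had 13 counts in WT IP 1, 141 and 230 in KO inputs and was unlisted elsewhere, MT-TQ (tRNA-Gln) had 11 in WT input 1 and 21 and 40 in KO inputs, and MT-TE (tRNA-Glu) had 24 in WT input 2 and 75 in KO input 2. For scale, the region over MT-TM, the mitochondrial tRNA-Met, was 3.62 ± 0.19 (log2, SE) higher in WT IPs than in WT inputs (adjusted p = 8.36e-05), and its log2 fold change in the KO was -0.09 ± 0.13 (adjusted p = 0.571).

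The pattern over the 8 libraries, as centred log2 CPM, placed the members among different neighbours. Among 31 other cytosolic anticodons with peaks in every library, the nearest by Euclidean distance were Gly-GCC (0.46) and Gly-TCC (0.583) to Lys-CTT, Gly-TCC (0.406) and Gly-GCC (0.475) to Glu-CTC, Ser-TGA (0.74) and Leu-CAG (0.772) to Lys-TTT, Ser-CGA (0.589) and Ile-AAT (0.777) to Gln-CTG, and Ile-AAT (0.484) and His-GTG (0.644) to Glu-TTC. Among the members, Lys-CTT lay closer to Glu-CTC (0.605) than to its partner Lys-TTT (2.32), and Glu-TTC closer to Gln-CTG (0.63) than to Glu-CTC (2.12). Of a list of 23 genes of wobble uridine modification and of tRNA base methylation or oxidation, among them the Elongator subunits, ALKBH8, CTU1, CTU2, NSUN2 and ALKBH1, 22 were found in the annotation and 0 had a sense peak, so these lists give no level for them.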

How the data were processed

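The 8 libraries (WT or ALKBH1 KO; input or IP; 2 each) came as 2 peak lists per library. Per the study's methods, the authors removed PCR duplicates by unique molecular identifiers, mapped reads with STAR to tRNA and rRNA and then to GRCh38, and called peaks per library with Paraclu at default settings. The deposited value used is the cDNA count of each peak, a raw count of at least 10 in these lists.

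Overlapping peaks (at least 1 nt, same strand) were merged across libraries. Sense tRNA peaks were summed per anticodon or kept per reference, and each feature listed in all libraries compared entered the test, edgeR 4.0.16 (quasi-likelihood, TMM factors, Benjamini-Hochberg over all features, threshold 0.05) in R 4.3.3. The fits were tested on simulated data, where 82.5 to 98.5% of features changed 4-fold were recovered and 1.79 to 7.18% of calls were wrong. Most member values were smaller than 4-fold, so this recovery does not apply to them. T34 shares were compared with exact permutation tests in Python 3.11.15. DESeq2 1.42.0, other scalings, other filters, a replicate block and leave-outs were tried. Counts of 48380 to 285539 per library limit the precision. All 6 anticodons are named, and references past the threshold in any comparison, highest or lowest of their anticodon, or in 1 group alone. The members and lists were chosen with earlier results of these data known. The sequence of 1 reference is not reported here.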

Additional observations from a re-analysis of the deposited data

Results flagged for a closer look

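Of the 13 references tested for it, 4 differed between WT and KO in their pulldown difference by the interaction term, against 30.1% of all 186 regions. Glu-TTC-1-1 had 1.76 ± 0.24 (log2, SE; edgeR adjusted p = 0.00142), Lys-CTT-1-1 had -0.92 ± 0.21 (adjusted p = 0.0159), Lys-TTT-3-1 had -0.79 ± 0.21 (adjusted p = 0.0287) and Gln-CTG-4-1 had -1.08 ± 0.34 (adjusted p = 0.0451). The call of Gln-CTG-4-1 was lost in every leave-out, and those of Lys-CTT-1-1 and Lys-TTT-3-1 in some, as given above. The peaks of Glu-TTC-1-1 ended at base 62 in both WT IPs and at base 57 or 58 in the other 6 libraries. Those of Gln-CTG-4-1 began at base 9 in both WT IPs and at base 2 in the other 6 libraries. Those of Lys-TTT-3-1 began at bases 19 and 12 in KO IPs and at base 2 or 3 elsewhere. The part of these windows in the results was not tested.

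Outside the sense-strand counts used above, 1 antisense peak was listed, on tRNA-Lys-CTT-9-1 (bases 30 to 48, minus strand), with 11 counts in KO IP 2 and none listed in the inputs or in any other library.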

How the results depend on the processing

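No value past the threshold reversed under any alternative among the member anticodons and references, in either fit. Values of the nuclear loci, Leu-CAA and MT-TM under the alternatives were not examined. Counts of members called moved as follows. With tRNA-only TMM factors, 3 anticodons were called in WT IP against input (2 as reported) and 6 in KO (4 as reported). For WT IP against KO IP per anticodon the count was 1 with peak totals or tRNA-only TMM factors (0 with TMM). For the interaction per anticodon it was 2 with RLE factors, peak totals, tRNA-only TMM factors, a mean count of at least 50 or the largest reference, 3 with DESeq2 and 1 with unlisted features set to 0 (0 as reported). The study-style filter kept 2 references in WT and 1 in KO at a ratio above 2, and 0 and 2 with a score above 100. Leave-outs gave, per anticodon, 1 to 2 calls (WT IP against input), 2 to 3 (KO), 0 to 2 (inputs) and 0 to 1 (interaction), and per reference 3 to 6, 5 to 8, 0 to 5 (IPs), 0 to 3 (inputs) and 1 to 4. The Lys share of WT minus KO, fractions pooled, ran from -0.495 points without KO input 2 to 9.99. Each leave-out left unequal numbers of IPs and inputs in 1 genotype, and their Lys shares differed by 26.5 points, so this range takes in that imbalance. With fewer libraries, both spread and degrees of freedom change.

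Values that were not past the threshold changed sign in these cases (log2). Gln-CTG in WT was at 0.11 (tRNA-only TMM factors), 0.074 (mean count of at least 50) and -0.286 to 0.0255 (leave-outs, the highest without WT IP 2). Between IPs, Glu-CTC was at -0.10 and -0.0364 and Lys-TTT at -0.20 and -0.13 (peak totals, tRNA-only), Glu-TTC at 0.16 (mean count) and -0.0945 to 0.0225 (leave-outs, the highest without WT IP 1), and Lys-CTT at 0.0207 (mean count) and 0.14 (largest reference). Between inputs Gln-CTG was at 0.0268 (RLE factors), 0.027 (DESeq2), 0.11 (mean count), 0.19 (largest reference) and -0.114 to 0.0658 (leave-outs, the highest without WT input 1). In the interaction Gln-CTG was at -0.19, -0.51, -0.40, -0.19, -0.47, -0.38 and -0.87 and Glu-CTC at -0.0214, -0.34, -0.23, -0.0179, -0.30, -0.21 and -0.19, under RLE factors, peak totals, tRNA-only TMM factors, DESeq2, unlisted set to 0, mean count and largest reference in that order. Leave-outs gave -0.177 to 0.164 for Gln-CTG, -0.0425 to 0.354 for Glu-CTC and -0.438 to 0.0114 for Glu-TTC-2-1, and the largest reference gave -0.32 for Glu-TTC. The causes were not tested.

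Input and IP were taken from the same RNA per the protocol, but the labels do not say that a shared number marks it. Deviations of same-numbered libraries (138 features) correlated at r = 0.515 for WT input and WT IP and 0.209 for KO input and KO IP. Over the other 4 pairs of groups, which join WT with KO and share no RNA, r was -0.107 to 0.394. The rule for the block, r above 0.1 in every pair, was failed only by pairs that join WT with KO. The main fits thus leave out the pairing that the protocol describes, and the block was kept as an alternative. With it, 7 references were called between the IPs (4 without), 8 in WT IP against input (8 without), 11 in KO (10 without) and 8 between inputs (6 without), and counts of anticodons called did not change. The Lys and Glu shares, IP against input, had an adjusted exact permutation p of 0.225 with arrangements kept within the blocks. That test has too few arrangements for even full separation of IPs from inputs to pass, so it cannot decide the question.

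Depth limits the Gln-TTG values: 10 counts, the list minimum, were worth 153 and 207 CPM in the WT IPs.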
